A study of Bos taurus with 52 samples.

Results

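The endometrium of non-pregnant heifers classed as infertile (NP-IF, 5 heifers) was compared with that of non-pregnant heifers classed as high fertile (NP-HF, 5 heifers), gene by gene, over all genes that passed a filter on low counts. These 10 libraries were all NP-IF and NP-HF samples of a cattle series of 52 RNA-sequencing libraries, of which 25 were of endometrium. The other 15 endometrium libraries came from non-pregnant subfertile heifers (NP-SF, 5) and from pregnant high-fertile (P-HF, 5) and pregnant subfertile (P-SF, 5) heifers on day 17. Not given in the sources used here are the breed, age, cycle day and any treatment of the non-pregnant heifers, or how their classes were assigned. Each library is labelled with its own animal number, so that the 5 libraries of a group were read as 5 animals. Replicate numbers (NP-HF 1 to NP-HF 5) only name the libraries.

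The endometrium is the lining of the uterus, with a surface epithelium that includes ciliated cells, coiled glands, a fibroblast-rich stroma, vessels and resident leukocytes. Its secretions feed the free-floating bovine conceptus before implantation, and progesterone and estradiol, acting through receptors in stroma and epithelium, set which genes it expresses. Late in the cycle of a non-pregnant cow, oxytocin acting on the endometrial oxytocin receptor releases prostaglandin F2 alpha made by the cyclooxygenase PTGS2, and the corpus luteum regresses. In pregnancy the conceptus prevents this with interferon tau, which also induces a large set of interferon-stimulated genes in the endometrium. The comparison asks whether the lining differs between the 2 classes when no conceptus is present.

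The 10 libraries held a total of 19 to 26 M (mega) counts in NP-IF and 20.5 to 23.3 M in NP-HF, with at least 1 read in 23485 to 24500 and in 23712 to 24229 genes. Levels below are in CPM (read counts divided by the library total, in M, after scaling by TMM factors), and differences are log2 fold changes of NP-IF minus NP-HF with their standard error (SE). The libraries did not separate by class. The median correlation of log2 CPM between libraries was 0.967 within NP-HF, 0.973 within NP-IF and 0.971 between them. The first principal component, with 20.3% of the variance, set NP-HF 4, NP-HF 5 and NP-IF 5 (35.0 to 47.9) apart from the other 7 libraries (-29.8 to -8.54). Those 3 libraries also had the lowest mean level of the ciliated cell genes, 3.43, 4.0 and 3.82 on the log2(CPM + 1) scale, against 4.78 to 5.66 in the other 7. NP-HF 2 stood apart on the second component (14.2% of the variance), at -61.0 against -17.7 to 25.5. For part of the results that rest on these libraries, values without them are given. For others the range over 20 alternative fits, with other tools, scalings, filters or fewer libraries, is given.

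**Figure D1:**
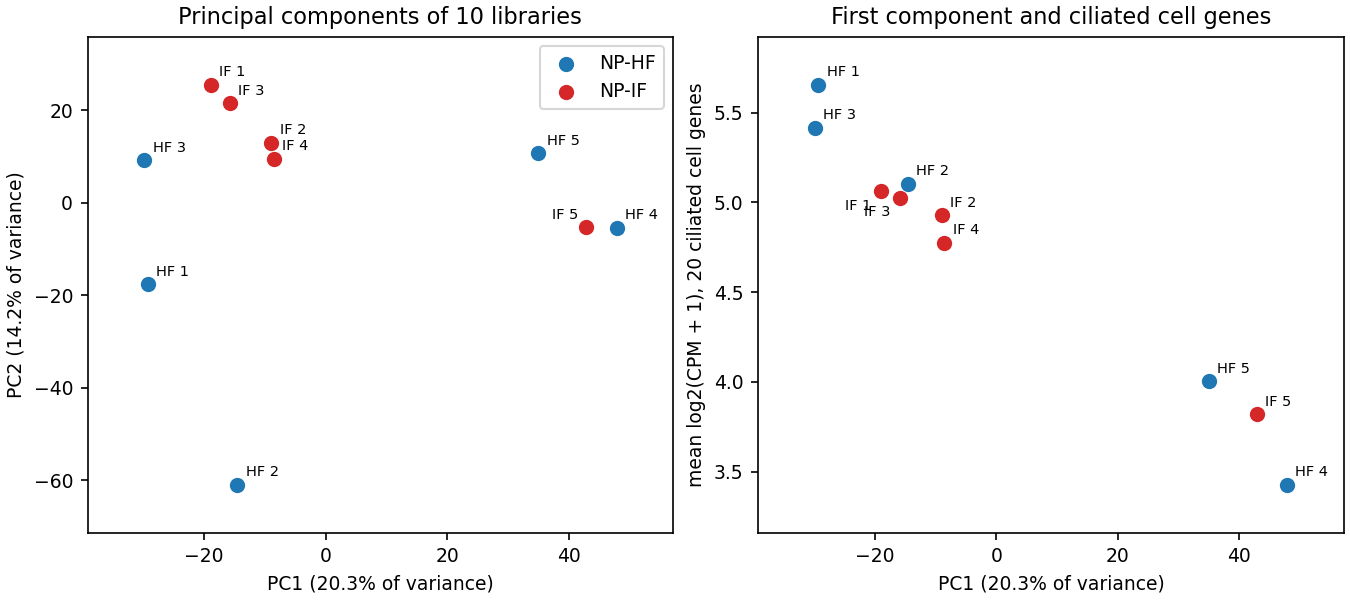
Left, the first against the second principal component of log2 CPM for the 10 libraries (1 point each, blue NP-HF, red NP-IF). Right, the first component against the mean log2(CPM + 1) of the 20 tested ciliated cell genes. NP-HF 4, NP-HF 5 and NP-IF 5 lie at the right of both panels with the 3 lowest ciliated cell means, and NP-HF 2 lies alone at the bottom of the left panel.

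No gene differed between infertile and high-fertile endometrium at an adjusted p under 0.05 in edgeR's quasi-likelihood test over 19606 tested genes (0 called, 0%), and the smallest adjusted p was 0.235. An unadjusted p under 0.05 was reached by 1070 genes (5.46%), 483 higher (2.46%) and 587 lower (2.99%) in NP-IF, where 980.3 would lie under that level with no difference at all. DESeq2 called 2 genes, ZNF70 and LOC100125946, and limma-voom called 0, with 1174 and 962 genes at an unadjusted p under 0.05. Without NP-HF 2, edgeR called LOC100125946 alone. The 5 NP-IF values lay wholly above or below the 5 NP-HF values for 163 genes (0.831%), 67 above (0.342%) and 96 below (0.490%). The median log2 fold change was -0.01, and 51.5% of genes were negative.

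The precision of the comparison limits what an empty list of calls can say. The median SE of a log2 fold change was 0.17. For 78.1% of the genes the 95% interval lay within a 2-fold difference either way, and this share was 93.7% among the 13639 genes whose mean reached 5 CPM in either group. Of these better-measured genes, 103 had a fitted difference beyond 2-fold (0.755%), 43 higher and 60 lower in NP-IF. Genes are therefore described below by their values, and "higher" or "lower" is a description of the 10 libraries wherever no call is named.

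**Figure D2:**
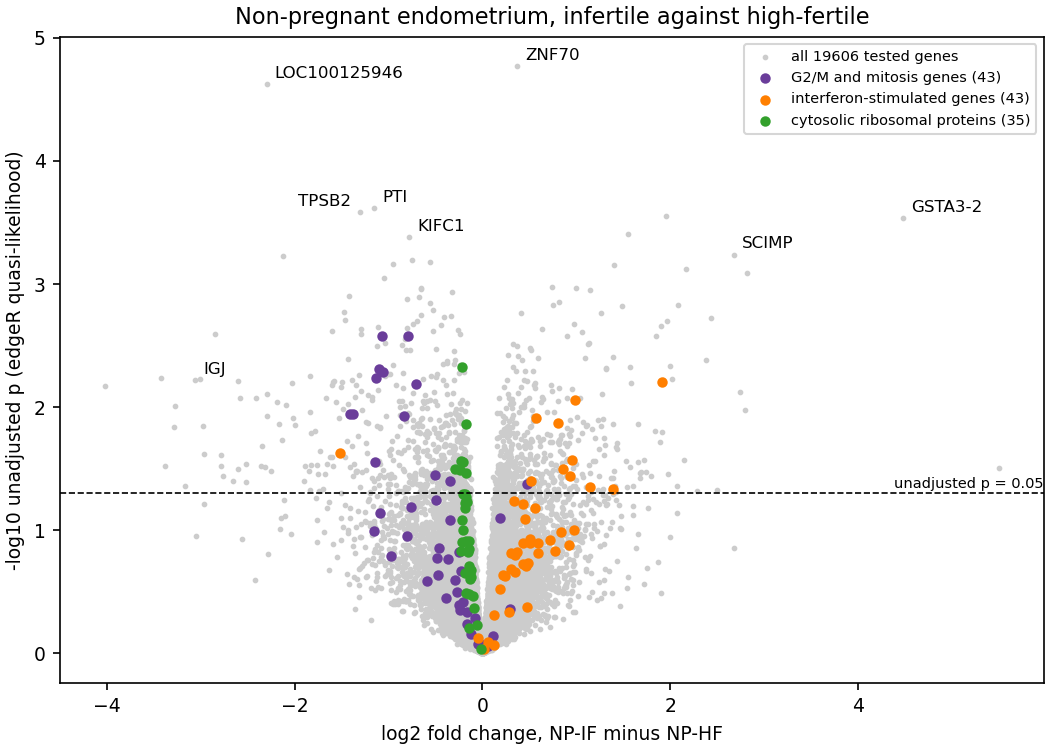
Log2 fold change (NP-IF minus NP-HF, horizontal axis) against -log10 of the unadjusted p (vertical axis) for the 19606 tested genes in grey, with G2/M and mitosis genes in purple, interferon-stimulated genes in orange and cytosolic ribosomal protein genes in green. No point passed adjustment. The purple points lie mainly left of 0, 41 of the 43 orange points lie to the right, and the green points form a narrow column just left of 0.

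ZNF70, which encodes a zinc finger protein, had the smallest p of all genes. Its levels were 23.0, 23.8, 24.9, 22.9 and 26.1 CPM in NP-HF 1 to 5 and 28.2, 34.6, 30.6, 32.3 and 30.4 CPM in NP-IF 1 to 5. Every NP-IF library was above every NP-HF library, with a difference of 0.37 ± 0.07 log2 units (95% interval 0.23 to 0.51, unadjusted p = 1.70e-05, adjusted p = 0.235). The NP-SF libraries lay between at 25.9 to 29.3 CPM, and those of P-HF at 26.8 to 30.8 CPM. LOC100125946, a locus with no gene symbol in the table used for names, was outside the rule for named genes and is given because DESeq2 called it. It measured 3.38, 1.51, 5.54, 7.33 and 9.39 CPM in NP-HF and 0.646, 1.44, 1.99, 0.799 and 0.626 CPM in NP-IF. The groups overlapped only through NP-HF 2, and the difference was -2.30 ± 0.44 (adjusted p = 0.235), or -1.50 without NP-HF 4, NP-HF 5 and NP-IF 5.

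Of the 15 named genes with the smallest p that were higher in NP-IF, 5 did not overlap between the groups: ZNF70, L3MBTL3, C24H18orf8, LETMD1 and PPFIBP1. The 15 were picked for small p and for at least 80% of library pairs ordered alike, so this count is no result about them. Over all genes 0.342% lay wholly above. L3MBTL3, a reader of methylated lysines on chromatin proteins, measured 44.6, 48.4, 54.6, 49.9 and 54.4 CPM in NP-HF and 61.3, 71.6, 80.6, 60.3 and 60.8 CPM in NP-IF. The difference was 0.41 ± 0.12 (adjusted p = 0.842), and the NP-SF libraries (41.9 to 65.4 CPM) spanned both groups. PPFIBP1, a liprin of cell adhesion sites, measured 53.4 to 73.7 CPM in NP-HF and 75.4 to 105 CPM in NP-IF (0.38 ± 0.12). The mitochondrial protein gene LETMD1 differed by 0.27 ± 0.08 and C24H18orf8 by 0.52 ± 0.16. Larger differences belonged to genes that were high in some NP-IF libraries only. UCHL1, a ubiquitin hydrolase best known from neurons, measured 9.84, 2.52, 2.86, 11.8 and 0.358 CPM in NP-IF, with NP-IF 1 and NP-IF 4 high and NP-IF 5 below all NP-HF libraries (0.742 to 2.48 CPM). SLCO5A1, of the organic anion transporter family, measured 10.5, 9.61, 4.24, 9.99 and 4.11 CPM in NP-IF against 2.76 to 4.19 CPM in NP-HF. The anchoring protein gene AKAP6 measured 122, 61.3, 95.7, 58.5 and 35.7 CPM against 38.6, 31.1, 50.7, 26.9 and 31.3 CPM, with NP-IF 5 within the NP-HF range. Among the rest, the log2 differences were 1.13 for the calsyntenin gene CLSTN2, 0.64 for dystrobrevin beta (DTNB) and 0.51 for the cell polarity gene PARD6B. They were 0.37 for EPB41L4B, 0.32 for the thiamine transporter SLC19A2 and 0.35 for RWDD4.

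Of the genes lower in NP-IF with the smallest p, PTI, TPSB2 and CPA3 encode proteins of mast cell granules, and none was called. They were put together after their values were seen, and only CPA3 is in the list of neutrophil and mast cell markers. These genes were picked for small p and for library pairs mostly ordered alike, so a lack of overlap is no result about them. Mast cells are tissue leukocytes whose granules hold tryptase, carboxypeptidase A3, histamine and, in cattle, the pancreatic trypsin inhibitor. PTI, which encodes that inhibitor, measured 7.59, 8.34, 11.2, 12.7 and 15.6 CPM in NP-HF 1 to 5 and 5.12, 6.42, 4.54, 4.54 and 4.34 CPM in NP-IF 1 to 5. All NP-IF values lay below all NP-HF values, and the difference was -1.15 ± 0.27 (95% interval -1.7 to -0.60, unadjusted p = 2.42e-04, adjusted p = 0.842). Over 20 alternative fits the PTI difference ranged from -1.26 to -0.81. The tryptase gene TPSB2 measured 4.53, 7.25, 8.77, 6.52 and 10.6 CPM in NP-HF and 2.93, 2.06, 2.21, 4.90 and 3.04 CPM in NP-IF. Only NP-IF 4 exceeded the lowest high-fertile library, NP-HF 1, and the difference was -1.31 ± 0.30 (adjusted p = 0.842). The carboxypeptidase gene CPA3 measured 3.59, 7.40, 5.71, 4.0 and 7.61 CPM in NP-HF and 2.68, 2.06, 3.51, 3.01 and 3.35 CPM in NP-IF, with no overlap and a difference of -0.95 ± 0.24 (adjusted p = 0.842).

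Other genes that mast cells use gave mixed or imprecise values. The mast cell growth factor receptor KIT, which other cells also carry, measured 19.6 to 51.6 CPM in NP-HF and 22.2 to 53.0 CPM in NP-IF (0.00 ± 0.33). The high-affinity IgE receptor subunit MS4A2 (-0.47 ± 0.40) and the histamine-forming enzyme HDC (-0.83 ± 0.73) were low in all libraries, and MS4A2 came to -0.07 without NP-HF 5. GATA2, a transcription factor of mast cells and other tissues, differed by 0.18 ± 0.10. KIT was named after its values were seen. Of the 11 tested neutrophil and mast cell markers 7 were negative, with a median of -0.18, and 1 (CPA3) was under an unadjusted p of 0.05. That median was -0.40 without NP-HF 1, -0.04 without NP-IF 4 and 0.01 without NP-HF 4, NP-HF 5 and NP-IF 5. In NP-SF the 3 granule genes measured 5.60 to 21.0 CPM for PTI, 2.56 to 7.21 CPM for TPSB2 and 3.09 to 5.46 CPM for CPA3. In the pregnant P-HF heifers they lay at 4.09 to 6.60, 2.54 to 3.59 and 2.48 to 4.56 CPM. In bulk tissue fewer cells of a type and less RNA per cell cannot be told apart, and tryptase and trypsin inhibitor genes have close copies, so that the assignment of reads among them is uncertain.

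The other 12 named genes that were lower in NP-IF had varied roles. APOE, the lipid carrier made by macrophages and other cells, measured 242, 264, 222, 292 and 299 CPM in NP-HF and 177, 128, 154, 168 and 214 CPM in NP-IF. The groups did not overlap, and the difference was -0.65 ± 0.17 (95% interval -1.01 to -0.29, adjusted p = 0.842). GLIPR1, a secreted CAP-domain protein, measured 4.76 to 7.20 CPM in NP-HF and 2.11 to 4.59 CPM in NP-IF (-0.75 ± 0.19). The cartilage matrix protein gene CILP (-0.56 ± 0.15), the mitochondrial ribosomal protein gene MRPL3 (-0.34 ± 0.10), the phospholipid acyltransferase gene LPGAT1 (-0.41 ± 0.12) and the zinc transporter gene SLC39A7 (-0.24 ± 0.07) also had groups that did not overlap. The 12 were picked for small p and for library pairs mostly ordered alike, so a lack of overlap is no result about them either. Over all genes 0.490% lay wholly below. AGR2, a protein disulfide isomerase of mucus-secreting epithelium, measured 26, 30, 117, 81.2 and 31.3 CPM in NP-HF and 12.1, 20.3, 18, 18.6 and 37.5 CPM in NP-IF. NP-HF 3 and NP-HF 4 were far above the rest, and the difference was -1.42 ± 0.39. HOMER2, a scaffold protein gene, differed by -0.74 ± 0.22, the collagen receptor of leukocytes LAIR1 by -0.69 ± 0.20 and NUCB2, the nesfatin precursor, by -0.53 ± 0.15. IGFBP4 and EHF are described with their groups below. For CILP, AGR2, HOMER2 and EHF the NP-SF libraries were at the NP-IF level, with NP-IF minus NP-SF of 0.11 ± 0.16, 0.07 ± 0.38, 0.05 ± 0.22 and -0.04 ± 0.15. It was also small for LPGAT1 (-0.07 ± 0.12), SLC39A7 (-0.06 ± 0.07) and NUCB2 (-0.09 ± 0.15). For APOE, GLIPR1, MRPL3, LAIR1 and IGFBP4 it was -0.48 ± 0.17, -0.56 ± 0.19, -0.18 ± 0.10, -0.37 ± 0.20 and -0.33 ± 0.13.

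**Figure D3:**
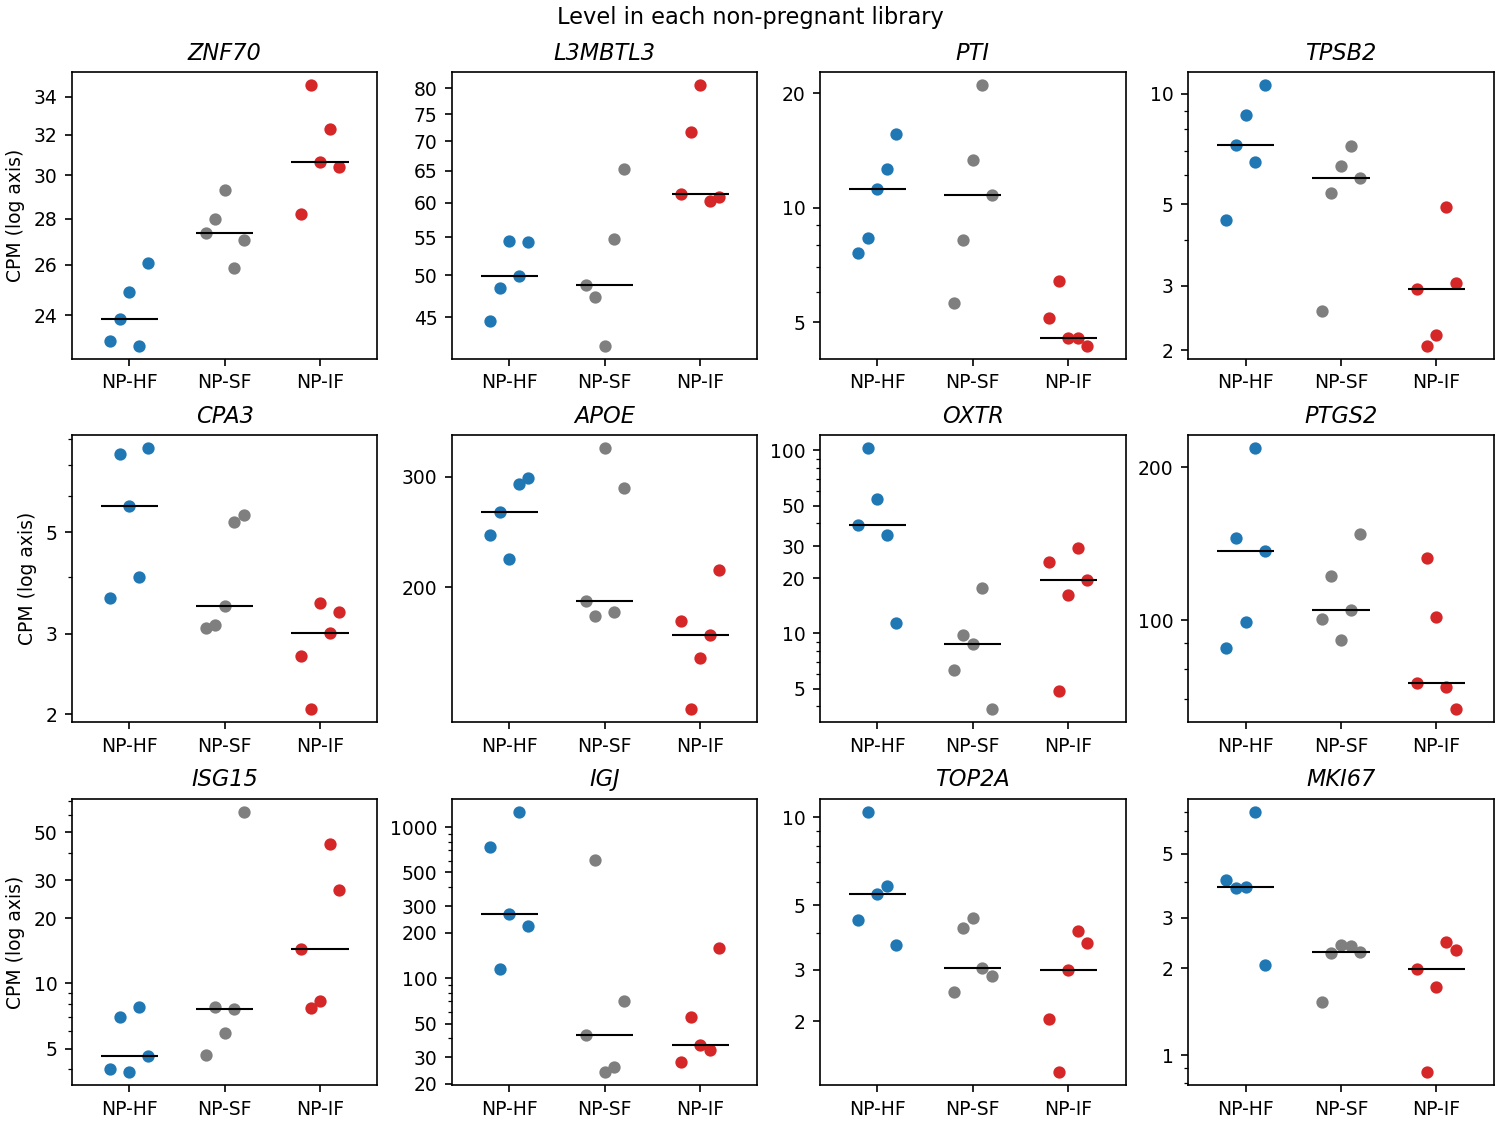
CPM (logarithmic axis, scaled separately in each panel) of 12 genes in each of the 5 NP-HF (blue), 5 NP-SF (grey) and 5 NP-IF (red) libraries, with the group median as a line. ZNF70, L3MBTL3, PTI, CPA3 and APOE show no overlap between blue and red points. IGJ is spread from 114 to 1265 CPM within NP-HF alone.

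PGR and ESR1, nuclear receptors of the ovarian steroids, did not differ detectably. PGR, the progesterone receptor, measured 5.94, 8.20, 6.37, 8.76 and 4.95 CPM in NP-HF and 4.77, 4.16, 6.49, 7.12 and 5.90 CPM in NP-IF, a difference of -0.26 ± 0.26 (95% interval -0.80 to 0.27). ESR1, the estrogen receptor, measured 7.25 to 10.6 CPM and 6.66 to 10.7 CPM, a difference of -0.02 ± 0.19 (95% interval -0.41 to 0.37). Of the 14 steroid receptors and cofactors tested, 9 were negative, with a median of -0.05.

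OXTR, the oxytocin receptor, measured 39.2, 103, 54.6, 34.5 and 11.4 CPM in NP-HF 1 to 5 and 24.5, 4.83, 16.3, 29.3 and 19.7 CPM in NP-IF 1 to 5. NP-HF 2 was the highest and NP-IF 2 the lowest, and 4 of 5 high-fertile libraries lay above all infertile ones. The difference was -1.35 ± 0.47 (95% interval -2.32 to -0.38, unadjusted p = 0.00819, adjusted p = 0.903), and it was -0.88 without NP-HF 2. The NP-SF libraries were lower still, at 6.28, 9.80, 8.75, 17.8 and 3.87 CPM, and the P-HF libraries measured 3.31 to 10.1 CPM. The epidermal growth factor receptor EGFR was higher by 0.27 ± 0.12, or by 0.14 without NP-IF 5. Of the 15 tested receptors for oxytocin, prolactin and growth factors, 7 were negative, with a median of 0.00.

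The cyclooxygenase gene PTGS2 measured 88.2, 145, 99.2, 218 and 137 CPM in NP-HF and 75.3, 132, 101, 73.8 and 66.9 CPM in NP-IF. The groups overlapped, NP-HF 4 was the highest library, and the difference of -0.61 ± 0.24 (adjusted p = 0.903) was -0.38 without NP-HF 4. It was the 1 gene under an unadjusted p of 0.05 among 19 prostaglandin and glucocorticoid genes, of which 10 were negative with a median of -0.01. Of 29 tested genes for uterine secretions and progesterone-regulated products, 20 were negative with a median of -0.15. That median was -0.04 without NP-HF 4, -0.06 in limma-voom (16 negative) and 0.03 without NP-HF 4, NP-HF 5 and NP-IF 5 (14 of 30 negative). The aminopeptidase gene ANPEP differed by -0.52 ± 0.22 (-0.28 without NP-HF 3). SERPINA14, the uterine milk protein serpin, ranged from 1.94 to 71.4 CPM within NP-HF and from 5.85 to 35.0 CPM within NP-IF, so that its difference of -0.58 ± 0.73 is not resolved. GRP, the gastrin-releasing peptide of uterine glands, measured 1236 to 4722 CPM in NP-HF and 1636 to 2246 CPM in NP-IF (-0.27 ± 0.28), and the sign turned to 0.15 without NP-HF 2. The 24 tested glucose and amino acid transporters had 14 negative values and a median of -0.09, with none under an unadjusted p of 0.05, and the glutamine carrier SLC1A5 came nearest (-0.41 ± 0.20, or -0.27 without NP-HF 3).

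Growth factor pathways showed single lower genes, and their list medians lay between -0.08 and 0.01. IGFBP4, a secreted protein that binds insulin-like growth factors, measured 123, 124, 112, 157 and 135 CPM in NP-HF and 96.5, 91.6, 90.4, 85.9 and 116 CPM in NP-IF. NP-IF 5 was the only infertile library within the high-fertile range, and the difference was -0.44 ± 0.13 (adjusted p = 0.842). IGFBP6 differed by -0.48 ± 0.21 (-0.28 without NP-HF 2). The growth factors themselves differed little, IGF1 by -0.06 ± 0.25 and IGF2 by -0.08 ± 0.15, and 12 of 17 genes of the axis were negative with a median of -0.08. That median ranged from -0.15 to 0.02 over 20 alternative fits. At an unadjusted p under 0.05, 2 of the 17 were lower (11.8%), where 2.99% of all genes were lower. In the WNT pathway 15 of 30 genes were negative with a median of -0.01, and the ligand WNT5B (-0.58 ± 0.26, or -0.33 without NP-HF 4, NP-HF 5 and NP-IF 5) and the secreted antagonist SFRP2 (-0.42 ± 0.19) were under an unadjusted p of 0.05. In the TGF-beta, activin and BMP pathway 16 of 33 were negative with a median of 0.01. Myostatin (MSTN), an inhibitory ligand of that family, differed by -0.84 ± 0.37, and by -0.26 without NP-HF 2, which held 81.2 CPM against 12.2 to 33 CPM in the other high-fertile libraries.

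Genes of mitosis were lower in infertile endometrium as a group, although none was called. Of 43 tested G2/M and mitosis genes 38 were negative (51.5% of all genes were), and their median log2 fold change was -0.39 against -0.01 over all genes. At an unadjusted p under 0.05, 12 were lower and 1 was higher, where 2.99% of all genes were lower. TOP2A, the topoisomerase that untangles chromosomes, measured 4.45, 10.5, 5.46, 5.81 and 3.64 CPM in NP-HF and 2.04, 1.34, 2.99, 4.07 and 3.71 CPM in NP-IF. NP-HF 2 was the highest and NP-HF 5 fell within the infertile range, and the difference was -1.07 ± 0.32 (95% interval -1.72 to -0.41, adjusted p = 0.842). MKI67, a marker of dividing cells, measured 4.04, 3.82, 3.85, 7.0 and 2.06 CPM and 1.99, 0.874, 1.73, 2.47 and 2.33 CPM, again with NP-HF 5 within the infertile range (-1.14 ± 0.37, adjusted p = 0.903). Over 20 alternative fits the difference ranged from -1.36 to -0.77 for TOP2A and from -1.30 to -0.87 for MKI67. AURKB, a kinase of the spindle and cytokinesis, measured 1.40, 2.40, 1.49, 1.29 and 1.07 CPM and 1.04, 0.308, 0.260, 0.981 and 0.939 CPM, with no overlap (-1.10 ± 0.36). The cytokinesis scaffold ANLN (-0.79 ± 0.24), the spindle checkpoint kinase BUB1B (-1.06 ± 0.34) and the condensin subunit NCAPG (-0.71 ± 0.24) had the same direction. NCAPG was the other member of the list whose groups did not overlap, and was named for that after its values were seen. Over all genes 0.490% lay wholly below. KIFC1, a spindle motor outside the list and named for its p after the fact, measured 2.48 to 3.31 CPM in NP-HF and 1.29 to 2.03 CPM in NP-IF (-0.78 ± 0.19, unadjusted p = 4.18e-04).

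The mean log2(CPM + 1) of the mitosis list was 1.89 to 2.33 in NP-HF and 1.7 to 1.87 in NP-IF. The groups were adjacent and did not overlap, NP-HF 5 lying just above NP-IF 4 and NP-IF 5. The NP-SF libraries lay at 1.81 to 1.96, where NP-SF 2 and NP-SF 3 were above every infertile library and within the high-fertile range, and the other 3 were within the infertile range. Against NP-SF, 27 of the 43 genes were negative with a median of -0.09, where 51% of all genes were negative. The median against NP-HF stayed between -0.48 and -0.31 in all 20 alternative fits, and was -0.32 without NP-HF 2 and -0.48 without NP-HF 4, NP-HF 5 and NP-IF 5. The lower level of cell cycle genes in these libraries was known when the list was chosen, so that the list is no independent evidence of it. Genes of DNA replication and the G1/S step were closer to the background, with 25 of 38 negative and a median of -0.07. Among them 4 were lower at an unadjusted p under 0.05: the S-phase repressor E2F7 (-1.60 ± 0.47), the ribonucleotide reductase subunit RRM2 (-1.17 ± 0.41), the replication licensing factor CDT1 (-0.89 ± 0.38) and the helicase subunit MCM3 (-0.28 ± 0.13). That number was 2 without NP-HF 4, NP-IF 3 or NP-IF 5. Without NP-HF 4, NP-HF 5 and NP-IF 5 together RRM2 differed by -0.73 and MCM3 by -0.13, and NP-HF 4 held the most RRM2 (3.52 CPM). The cyclin-dependent kinase inhibitor CDKN1A was higher, at 22.1 to 39.4 CPM against 14.7 to 29.6 CPM (0.53 ± 0.19), and RB1, the retinoblastoma protein, differed by 0.22 ± 0.09, or by 0.10 without NP-IF 5 and 0.07 without NP-HF 4, NP-HF 5 and NP-IF 5. Over the 25 growth arrest and DNA damage genes 12 were negative with a median of 0.02. B and plasma cell genes and the ciliated cell genes also differed between these libraries (below and above), and their part in the mitosis result was not tested.

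Interferon-stimulated genes were higher in infertile endometrium as a group, again with none called. Of 43 tested genes 41 were positive, against 48.5% of all genes, with a median of 0.48. At an unadjusted p under 0.05, 10 were higher and 1 was lower, where 2.46% of all genes were higher. ISG15, a ubiquitin-like protein that interferon tau also induces, measured 4.04, 7.02, 3.89, 7.76 and 4.62 CPM in NP-HF and 14.5, 7.71, 8.31, 44.3 and 27.1 CPM in NP-IF. All infertile libraries but NP-IF 2 were above every high-fertile library, with NP-IF 4 and NP-IF 5 the highest, a difference of 1.91 ± 0.64 (95% interval 0.60 to 3.22, adjusted p = 0.903). The mitochondrial protein IFI27 measured 23.3 to 73.7 CPM and 41.7 to 141 CPM (0.99 ± 0.34), and the RNA sensor DDX58 31.4 to 59.0 CPM and 50.6 to 119.8 CPM (0.81 ± 0.30). The transcription factors IRF9 (0.57 ± 0.21) and IRF7 (0.52 ± 0.24) carry the signal to these genes. IRF7 was the 1 member whose groups did not overlap, at 19.1, 24.1, 23.1, 22.3 and 22.2 CPM in NP-HF and 28.5, 25.1, 25.5, 45.8 and 33.8 CPM in NP-IF. OASL, the lower exception, measured at most 1.19 CPM (-1.51 ± 0.62, or -0.66 without NP-HF 4, NP-HF 5 and NP-IF 5). IRF7 and OASL were named for these features after their values were seen. Over all genes 0.342% lay wholly above.

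The mean log2(CPM + 1) of the interferon list had a median of 5.01 in NP-IF and 4.53 in NP-HF, less apart than the heifers of either class were among themselves. It was 5.74 in NP-IF 4, 5.41 in NP-IF 5 and 5.01 in NP-IF 1. It was 4.57 to 4.76 in NP-IF 2 and NP-IF 3 and 4.28 to 5.10 in NP-HF. Among the subfertile libraries NP-SF 5 reached 5.68, with 62.5 CPM of ISG15, while the other 4 lay at 4.52 to 4.75. The count of 10 higher genes was 3 without NP-IF 4, 4 without NP-IF 5, 4 without NP-HF 1, 4 without NP-HF 3, 5 without NP-HF 5, 18 without NP-HF 4 and 15 without NP-IF 3, with a median of 0.32 to 0.60 over all 20 alternative fits. The pregnant libraries were on another scale: ISG15 measured 432 to 1378 CPM and DDX58 535 to 1175 CPM in P-HF. Against NP-SF, 38 of the 43 genes were positive with a median of 0.21, where 51% of all genes were negative. In that comparison 2 were higher at an unadjusted p under 0.05, where 2.27% of all genes were higher. ISG15 differed from NP-SF by 0.22 ± 0.60. The interferon list, like the others, was chosen with earlier results of these data known.

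Genes for antigen presentation did not shift upward between the classes as the interferon-stimulated genes did. Of the 18 class I and antigen processing genes, 12 were negative with a median of -0.03, and the peptide-loading chaperone PDIA3 was lower by -0.24 ± 0.10. BOLA (0.60 ± 0.45), NLRC5 (0.46 ± 0.27) and ERAP1 (0.25 ± 0.19) were among the 6 positive genes. Between libraries, the class I mean log2(CPM + 1) followed the interferon mean in part. It was 7.03 in NP-IF 4, 6.92 in NP-IF 1 and 6.84 in NP-IF 5, which also led NP-IF in the interferon list. NP-IF 2 and NP-IF 3 were lower, at 6.54 and 6.63. Among high-fertile libraries, NP-HF 4 and NP-HF 2 were the highest for both lists. Of the 14 MHC class II genes, 11 were negative with a median of -0.37. The peptide exchange subunit BOLA-DMA measured 14.5, 14.6, 14.1, 21.0 and 14.9 CPM in NP-HF and 11.3, 13.3, 13.7, 11.8 and 10.2 CPM in NP-IF, without overlap (-0.39 ± 0.18). NP-HF 4 stood above the other high-fertile libraries, and the difference was -0.27 without it and -0.20 without NP-HF 4, NP-HF 5 and NP-IF 5. The class II median was -0.11 without NP-HF 4 and -0.08 without NP-HF 4, NP-HF 5 and NP-IF 5. Reads from these polymorphic, closely related genes may be split among them.

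B and plasma cell genes had the lowest median of all lists, at -0.50 with 12 of 16 negative. IGJ, the joining chain of secreted immunoglobulin A and M, measured 737, 114, 264, 1265 and 221 CPM in NP-HF 1 to 5 and 27.8, 55.5, 35.8, 33.3 and 159 CPM in NP-IF 1 to 5. All infertile libraries but NP-IF 5 were below all high-fertile ones, and the difference was -3.06 ± 1.01 (95% interval -5.16 to -0.97, adjusted p = 0.903). The plasma cell chaperone MZB1 measured 3.79, 1.65, 2.44, 5.62 and 2.34 CPM and 0.895, 1.44, 0.952, 0.690 and 1.16 CPM, without overlap (-1.63 ± 0.68). The B cell surface gene MS4A1 was high in NP-HF 1 and NP-HF 4 only (3.59 and 2.57 CPM), and its -1.90 ± 0.87 was -1.25 without NP-HF 1. The summed level of the 17 listed genes in the table was 498 to 1728 CPM in NP-HF, 388 to 596 CPM in NP-IF and 412 to 1122 CPM in NP-SF, where NP-SF 2 held 609 CPM of IGJ and the other 4 held 23.8 to 70.0 CPM. The 3 genes lower at an unadjusted p under 0.05 (18.75%, where 2.99% of all genes were lower) became 1 without NP-HF 4 or without NP-IF 4.

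Other leukocyte lists were less clear. T and NK cell markers were negative in 22 of 25 genes with a median of -0.17, but the median was 0.05 without NP-HF 4, whose mean for this list (2.73) stood above the other high-fertile libraries (2.06 to 2.18). The lymph node homing receptor CCR7 (-1.20 ± 0.58) was under 1 CPM in all 10 libraries. Macrophage and dendritic cell markers were negative in 15 of 19 with a median of -0.18 (-0.10 without NP-HF 4), and the scavenger receptor MSR1 measured 6.84 to 10.5 CPM in NP-HF and 4.59 to 7.31 CPM in NP-IF (-0.47 ± 0.19).

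**Figure D4:**
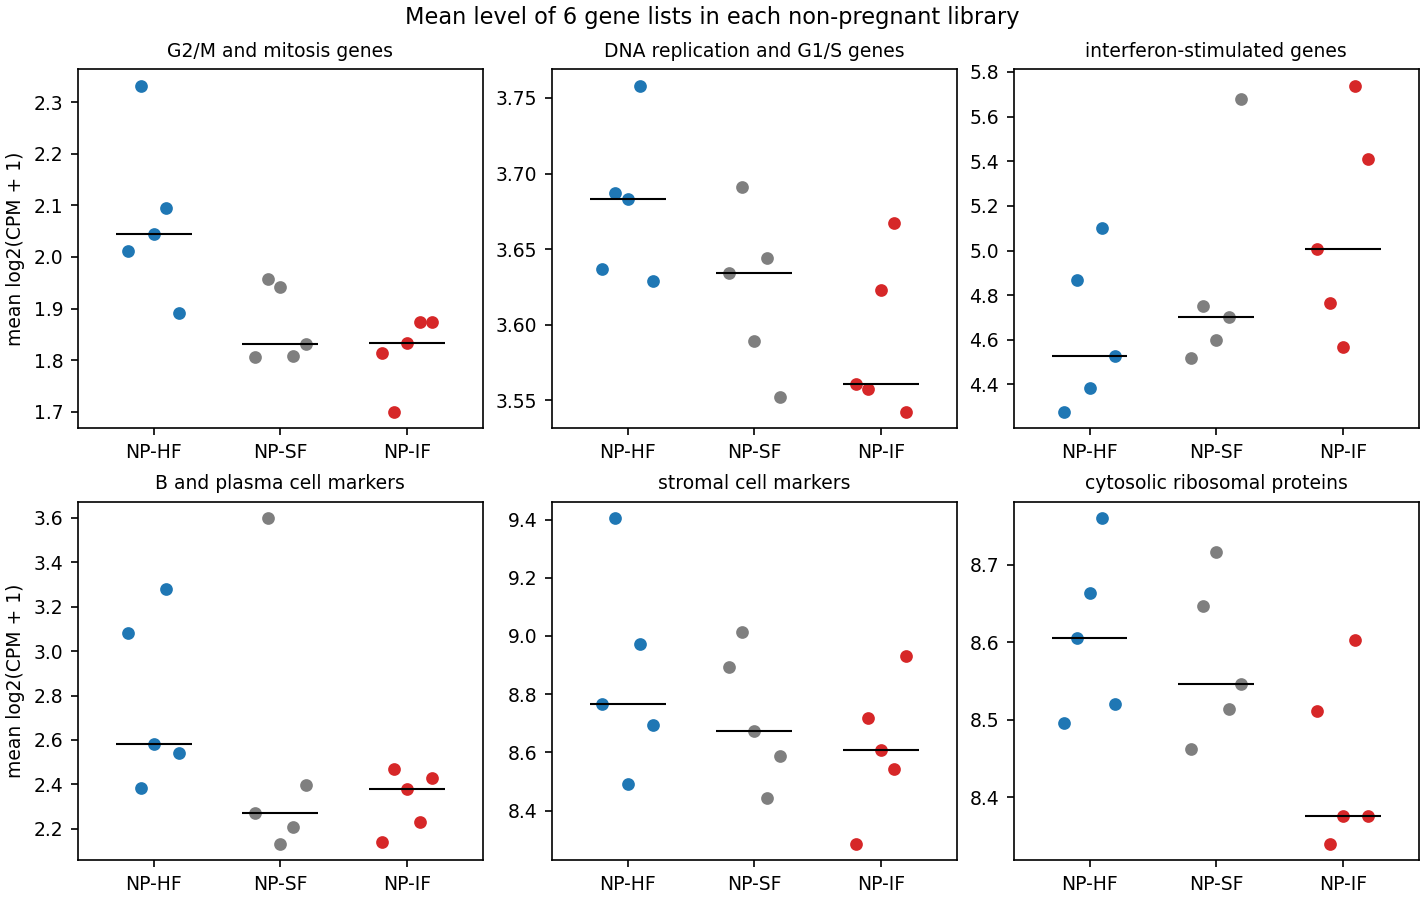
Mean log2(CPM + 1) of 6 gene lists in each of the 5 NP-HF (blue), 5 NP-SF (grey) and 5 NP-IF (red) libraries, with the group median as a line and a separate axis in each panel. The mitosis means of NP-HF and NP-IF do not overlap, and of the NP-SF points 3 lie within the NP-IF range and 2 within the NP-HF range. The interferon panel is led by NP-IF 4, NP-SF 5 and NP-IF 5.

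All 18 stromal cell markers were negative, with a median of -0.25, and 2 were under an unadjusted p of 0.05 (11.1%, where 2.99% of all genes were lower). The fibroblast surface protein THY1 measured 226, 289, 158, 239.7 and 156 CPM in NP-HF and 122, 145, 133, 165 and 228 CPM in NP-IF, with NP-IF 5 high (-0.43 ± 0.18). The uterine homeobox gene HOXA11 differed by -0.33 ± 0.14, or -0.14 without NP-HF 2, and it was also the 1 gene under an unadjusted p of 0.05 among 27 imprinted and developmental genes (16 negative, median -0.08). The stromal median was -0.10 with 14 of 18 negative without NP-HF 2. None was under an unadjusted p of 0.05 without NP-HF 2, NP-IF 1 or NP-IF 3, and 6 were without NP-HF 3. Without NP-HF 4, NP-HF 5 and NP-IF 5 it was -0.33, with 6 under that level. The fibrillar collagen COL3A1 measured 5931, 11315, 5227, 7039 and 5256 CPM in NP-HF and 3508, 5543, 5850.1, 4629 and 7075 CPM in NP-IF. NP-HF 2 was the highest by far, and the difference of -0.39 ± 0.24 was -0.14 without it. Of 36 collagen and basement membrane genes 27 were negative with a median of -0.10. LAMA3, a laminin chain of epithelial basement membrane, measured 49.9, 49.3, 47.4, 73.6 and 39.1 CPM in NP-HF and 26.3, 21.3, 28.1, 28.0 and 56.1 CPM in NP-IF, where 4 of 5 infertile libraries lay below all high-fertile ones and NP-IF 5 was high (-0.70 ± 0.26, or -1.0 without NP-IF 5). Matrix proteases, inhibitors and integrins had 17 of 31 negative, a median of -0.03 and none under an unadjusted p of 0.05, with the protease MMP19 nearest (-0.36 ± 0.18, or -0.17 without NP-HF 2).

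Endothelial markers had a median near that of all genes, and the differences of LYVE1 and NOS3 were smaller without NP-IF 5. Of 17 endothelial markers 4 were negative with a median of 0.02, and LYVE1, the hyaluronan receptor of lymphatic vessels, measured 6.66, 2.47, 4.98, 2.51 and 37.1 CPM in NP-IF against 1.98 to 4.57 CPM in NP-HF. Its difference of 1.73 ± 0.73 was 0.35 without NP-IF 5. Smooth muscle and pericyte markers had 4 of 15 negative with a median of 0.18, or 0.06 without NP-IF 3 and 0.08 without NP-HF 3, while the pericyte regulator RGS5 went the other way, at 80.8 to 109.9 CPM in NP-IF against 93.8 to 158 CPM in NP-HF (-0.47 ± 0.17). Hypoxia and angiogenesis genes had 13 of 24 negative with a median of 0.00. The endothelial nitric oxide synthase NOS3 (0.59 ± 0.28) came to 0.28 without NP-IF 5, and the lipase inhibitor ANGPTL4 differed by -0.66 ± 0.32.

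In the epithelium 2 transcription factors of the same ETS family went opposite ways. EHF measured 289, 321, 428, 309.7 and 200.2 CPM in NP-HF and 237, 234, 158, 260.2 and 186 CPM in NP-IF. NP-HF 5 lay within the infertile range, and the difference was -0.52 ± 0.15 (adjusted p = 0.842). ELF3 measured 43.6, 21.0, 51.3, 26.7 and 30.9 CPM and 46.1, 37.3, 59.5, 45.0 and 79.7 CPM, with overlap (0.62 ± 0.22, or 0.29 without NP-HF 4, NP-HF 5 and NP-IF 5). Of 20 epithelial markers 8 were negative with a median of 0.05. Of 29 genes for mucins, junctions and surface proteins 14 were negative with a median of 0.03. The membrane mucin MUC13 measured 94.6, 275, 141, 231 and 237 CPM in NP-HF and 171, 101, 69.7, 90.7 and 98.6 CPM in NP-IF, with NP-HF 1 low and NP-IF 1 high (-0.88 ± 0.31), and the cadherin CDH2 differed by -0.67 ± 0.26. Ciliated cell markers were negative in all 20 tested genes, but the values were small beside the spread between heifers. Their summed level was 269 to 1328 CPM in NP-HF and 379 to 880 CPM in NP-IF, the median was -0.14, and none was under an unadjusted p of 0.05. The axoneme gene CFAP43 came nearest (-0.63 ± 0.44, or -0.40 without NP-HF 1). The median was 0.12 without NP-HF 1, 0.01 without NP-IF 5 and -0.46 without NP-HF 4, NP-HF 5 and NP-IF 5.

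The acute-phase genes HP, SAA3 and M-SAA3.2 gave large differences that rested on few heifers. HP, haptoglobin, measured 1.81, 2.36, 1.74, 4.90 and 4.67 CPM in NP-HF and 7.26, 4.52, 0.822, 8.28 and 59.7 CPM in NP-IF. NP-IF 5 alone was far above the rest, and the difference of 2.38 ± 0.75 was 0.76 without it. The serum amyloid genes went the other way: SAA3 measured 25.6, 211, 129.6, 59.1 and 15.9 CPM and 17.6, 8.33, 14.3, 26.4 and 23.1 CPM (-2.29 ± 0.79), and M-SAA3.2 34.9, 689.7, 97.1, 99.0 and 41.2 CPM and 21.5, 24.2, 64.4, 37.2 and 33.1 CPM (-2.41 ± 0.84). NP-HF 2 was the highest for both, and without it M-SAA3.2 differed by -0.91 and SAA3 by -1.68. These are close copies, so that reads may be split between them. The complement inhibitor CD55 was higher by 0.43 ± 0.20. The 29 tested complement, antimicrobial and acute-phase genes had 17 negative values and a median of -0.06. Of 33 chemokines and cytokines 19 were negative with a median of -0.04, with the macrophage growth factor IL34 (-0.35 ± 0.16, or -0.20 without NP-HF 1) and the stromal chemokine CXCL12 (-0.43 ± 0.20) lower at an unadjusted p under 0.05.

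Metallothioneins, small proteins that bind zinc and copper, were higher in infertile endometrium in part of the heifers. MT2A measured 3.79, 2.83, 4.18, 6.57 and 4.81 CPM in NP-HF and 19.9, 6.12, 4.93, 5.99 and 29.3 CPM in NP-IF, and MT1A 0.907, 0.707, 2.85, 1.67 and 0.794 CPM and 5.32, 4.99, 0.692, 2.8 and 8.18 CPM. NP-IF 1 and NP-IF 5 led for both genes, and the differences were 1.58 ± 0.51 (adjusted p = 0.903) and 1.65 ± 0.62. The quinone reductase NQO1 measured 8.18 to 31.6 CPM in NP-IF against 19 to 38.8 CPM in NP-HF (-0.68 ± 0.25), and the endoplasmic reticulum peroxidase GPX8 differed by -0.28 ± 0.13, or -0.12 without NP-HF 2. Over 26 antioxidant and heme genes 18 were negative with a median of -0.07. Among 30 heat shock and unfolded protein response genes 18 were negative with a median of -0.02. HSPA6, a stress-induced chaperone, differed by 1.43 ± 0.69, and by 0.43 without NP-IF 5, while the oxidative folding enzyme PDIA6 differed by -0.18 ± 0.07. Immediate early genes had 10 of 27 negative with a median of 0.08, and the nuclear receptor NR4A3 differed by 1.06 ± 0.41, or 0.62 without NP-IF 3.

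Nearly all genes of the ribosomal protein and respiratory chain lists were negative by a small amount. All 35 cytosolic ribosomal protein genes were negative, between -0.29 and -0.01, with a median of -0.17. RPS27 measured 316, 414, 371, 395 and 361 CPM in NP-HF and 306, 339, 293, 338 and 322 CPM in NP-IF. NP-HF 1 was the only high-fertile library within the infertile range, and the difference was -0.22 ± 0.07 (adjusted p = 0.903). RPL15 differed by -0.17 ± 0.07 and RPS24 by -0.20 ± 0.09. At an unadjusted p under 0.05, 7 of the 35 were lower (20%), where 2.99% of all genes were lower. That count was 2 without NP-HF 4, 2 without NP-IF 3, 3 without NP-HF 3, 3 without NP-IF 2, 4 without NP-IF 5, 11 without NP-IF 1, 12 without NP-HF 1 and 17 without NP-IF 4, and 1 without NP-HF 4, NP-HF 5 and NP-IF 5. At least 33 genes stayed negative in all 20 alternative fits, other scalings included. Against NP-SF all 35 were negative too, with a median of -0.13, in a comparison that shares the NP-IF libraries. Of 35 nuclear-encoded respiratory chain subunits 33 were negative with a median of -0.13. The median was -0.08 without NP-HF 4, and -0.06 with 27 negative without NP-HF 4, NP-HF 5 and NP-IF 5. At an unadjusted p under 0.05, 1 of the 35 (2.86%) was lower, near the 2.99% of all genes: NDUFA2, of complex I, which measured 9.48 to 12.8 CPM in NP-IF against 12.2 to 15.6 CPM in NP-HF (-0.39 ± 0.13).

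Metabolic lists stayed near 0. Of 29 glycolysis and citric acid cycle genes 20 were negative with a median of -0.09, with the aldolase ALDOC (-0.50 ± 0.16) and the phosphofructokinase PFKM (-0.29 ± 0.12) lower. Lipid metabolism and PPAR genes had 20 of 38 negative with a median of -0.01. The mitochondrial beta-oxidation enzyme HADHA (-0.27 ± 0.11), the fatty acid carrier FABP5 (-0.32 ± 0.15) and the nuclear receptor RXRA (-0.21 ± 0.10) were lower. Cholesterol synthesis and transport had 6 of 26 negative with a median of 0.11, or 0.04 without NP-HF 2. The exporter ABCA1 was the exception, at 215, 542, 171, 709.8 and 239.9 CPM in NP-HF and 195, 203, 168, 162 and 308 CPM in NP-IF. NP-HF 2 and NP-HF 4 were high, and the difference of -0.86 ± 0.30 was -0.49 without NP-HF 4. Steroid synthesis and inactivation genes had 9 of 23 negative with a median of 0.05, and the retinoic acid synthase ALDH1A3 came nearest to the unadjusted level (-0.32 ± 0.17, or -0.10 without NP-HF 4).

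Red blood cell transcripts were low, and some transcripts of the conceptus list were measured in both groups. Red blood cell markers summed to 1.08 to 2.23 CPM in NP-HF and 2.15 to 2.83 CPM in NP-IF, of which 2 of 9 were tested. AHSP, a hemoglobin chaperone, measured 0.801 to 1.53 CPM and 1.45 to 2.52 CPM (0.58 ± 0.24). Of the 20 conceptus transcripts that were counted, 5 were tested, and PAG11, PAG19, TKDP1 and PRP1 had no read in any of the 10 libraries. The 20 summed to 16.8 to 44.1 CPM in NP-HF and 18.9 to 62.2 CPM in NP-IF. SSLP1, a secreted Ly-6 family protein, measured 11.1, 5.94, 18, 32.1 and 12.1 CPM in NP-HF and 52.6, 7.81, 11.8, 31.6 and 11.2 CPM in NP-IF. NP-IF 1, NP-HF 4 and NP-IF 4 were high, the groups overlapped, and the difference of 0.54 ± 0.43 was -0.02 without NP-IF 1. The transcription factor TFAP2C measured 2.39 to 5.33 CPM and 2.68 to 5.24 CPM (0.19 ± 0.23). IFNT2, an interferon tau gene, measured 2.40 to 3.14 CPM in NP-HF, 1.60 to 2.93 CPM in NP-IF and 2.25 to 3.50 CPM in P-HF (-0.49 ± 0.24). The mean of SSLP1 was 15.8 CPM in NP-HF, 23.0 CPM in NP-IF and 9.59 CPM in P-HF. That of TFAP2C was 3.69, 4.19 and 2.30 CPM. Reads under these names in non-pregnant heifers cannot be taken as conceptus expression, and their source was not tested.

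**Figure D5:**
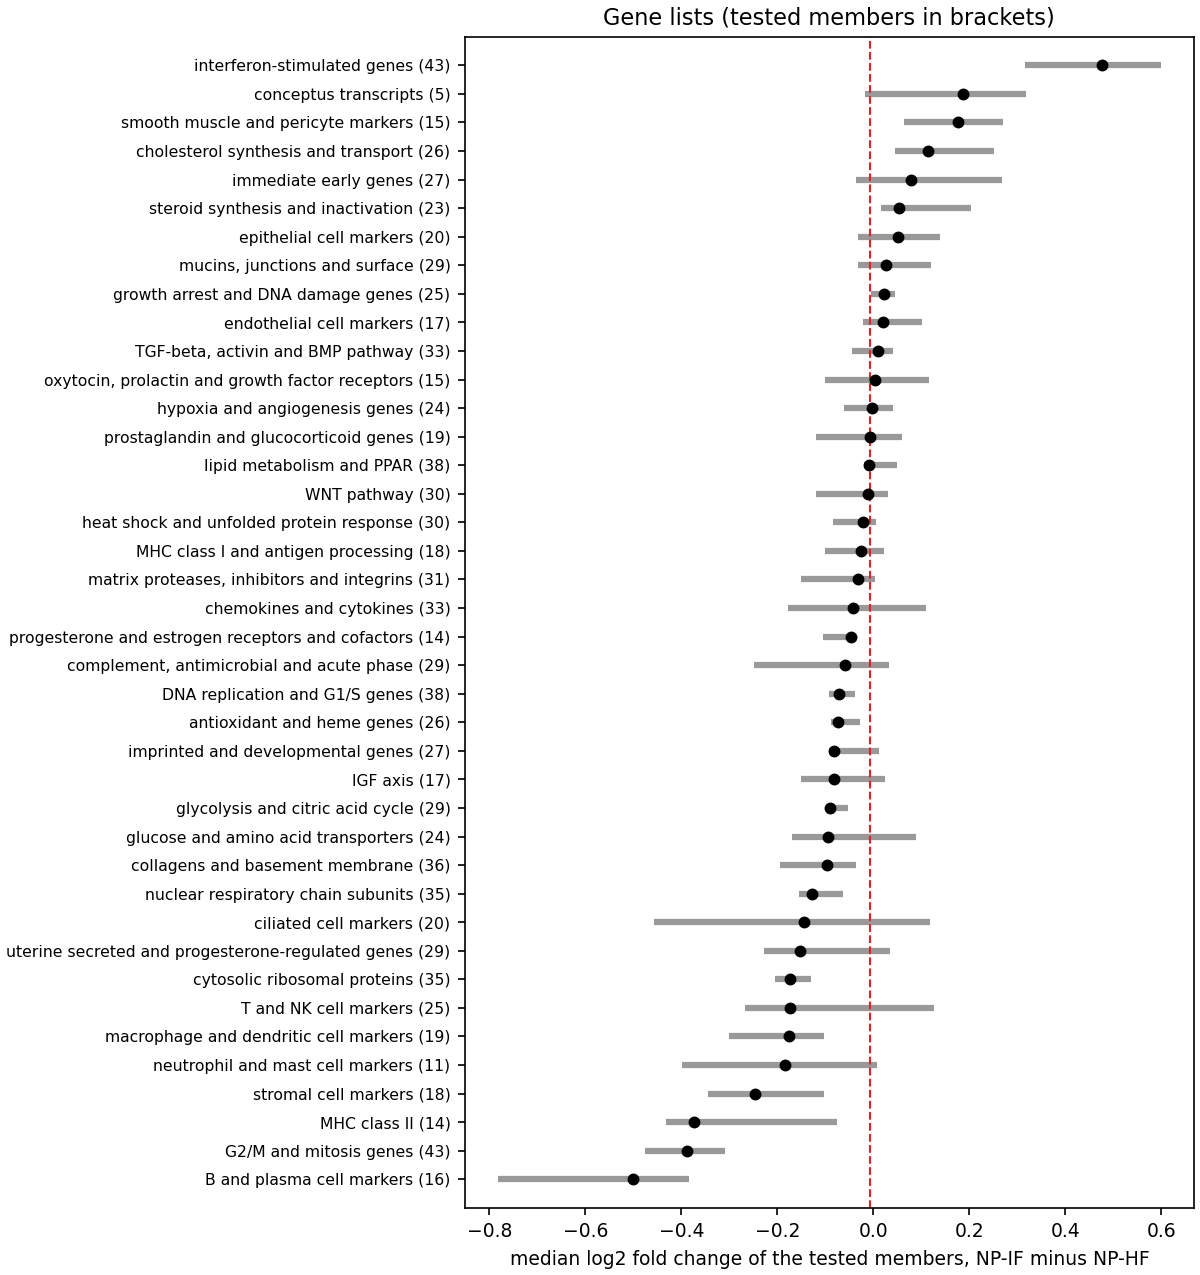
Median log2 fold change (NP-IF minus NP-HF) of the tested members of 40 gene lists (black points) with the range of that median over 20 alternative fits (grey bars), and the median of all 19606 tested genes (dashed red line). B and plasma cell, mitosis, MHC class II and stromal lists lie farthest to the left at -0.50, -0.39, -0.37 and -0.25, and the interferon-stimulated list lies farthest to the right at 0.48.

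Set against the subfertile heifers, NP-IF again gave 0 called genes in edgeR's quasi-likelihood test (0%), with a smallest adjusted p of 0.133 and 784 genes at an unadjusted p under 0.05 (4%), 445 higher (2.27%) and 339 lower (1.73%). DESeq2 called 10 genes, 7 higher and 3 lower, with PTI, LOC100125946, SCIMP and GSTA3-2 among them, and limma-voom called 0. This comparison uses the same NP-IF libraries as the main one, so the 2 are given side by side only. PTI, lower than NP-HF by -1.15 ± 0.27, was -1.24 ± 0.27 against NP-SF. For TPSB2 the values were -1.31 ± 0.30 and -0.85 ± 0.30, for CPA3 -0.95 ± 0.24 and -0.48 ± 0.24, and for APOE -0.65 ± 0.17 and -0.48 ± 0.17. For ZNF70 they were 0.37 ± 0.07 and 0.18 ± 0.07, and for L3MBTL3 0.41 ± 0.12 and 0.37 ± 0.12. For MKI67, TOP2A and ANLN the values against NP-SF were -0.20 ± 0.38, -0.27 ± 0.32 and 0.11 ± 0.24, smaller than the -1.14, -1.07 and -0.79 against NP-HF. BUB1B was likewise -0.24 ± 0.35 against NP-SF and -1.06 against NP-HF. AURKB and KIFC1 kept more of their differences, at -0.89 ± 0.36 and -0.59 ± 0.19 against NP-SF beside -1.10 and -0.78 against NP-HF. OXTR went from -1.35 ± 0.47 against NP-HF to 1.03 ± 0.47 against NP-SF, and the NP-SF values were the lowest of the 3 non-pregnant groups. GRP was 0.76 ± 0.28 against NP-SF, whose libraries measured 943, 656, 1799, 1163 and 1149 CPM. Whether the 2 differences of any gene differ from each other was not tested.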

How the data were processed

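Endometrial RNA from the 25 endometrium libraries was sequenced from strand-marked mRNA libraries, per the labels' protocols. The authors deposited 1 table of raw read counts, whole numbers for each gene without normalization (31651 named genes, with 1020 empty lines left out), and per the submitters' processing notes the tools were HISAT2, StringTie and edgeR with genome build UMD3.1. Not given in the sources used here are tool versions and the strand setting of the counting. Reads of overlapping genes and close copies therefore cannot be told apart with certainty. Gene names were matched to a RefSeq table of another assembly, so no coordinates or sequences are given: 15548 of the 19606 tested names were current symbols and 4461 were of the LOC form.

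From these counts, genes were filtered with filterByExpr (minimum count 10, minimum total count 15) and scaled by TMM. All 25 libraries were fitted together in 5 groups with edgeR 4.0.16 (R 4.3.3), whose quasi-likelihood test with Benjamini-Hochberg adjustment gives all p-values of single genes in the text. Calls needed an adjusted p under 0.05. Values after ± are SEs. The precision is that of 5 heifers a group at 19 to 26 M counts. DESeq2 1.42.0, limma-voom (limma 3.58.1), other scalings and filters, fits on fewer libraries and leaving out each library were tried, and leaving out NP-HF 4, NP-HF 5 and NP-IF 5, or NP-SF 2 and NP-SF 5, together was added after seeing the data.

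Named genes were up to 15 in each direction with the smallest p, at least 5 CPM in the higher group, at least 80% of the 25 library pairs ordered alike and a symbol, plus 10 set genes. From each of 41 gene lists up to 4 members with the smallest p could be named, of which those under an unadjusted p of 0.05, or else the first, are given. Some genes that this rule names are not reported here. The comparison, lists and named genes were chosen with earlier results of these data known. The tests were checked on simulated data.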

Additional observations from a re-analysis of the deposited data

Results flagged for a closer look

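Single libraries lay far from the other 4 of their group for a number of the genes and lists above, by Dixon's test at 95%. Chance alone passes it in about 1 group of 20 where values are independent and normally distributed. That rate was not checked for CPM, and the genes share the same libraries, so the shares below do not measure an excess. Of 238 gene groups 22 passed (9.24%), and of 82 list groups 3 passed.

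NP-IF 5 was the highest infertile library for 10 genes: 37.1 CPM of LYVE1 (the others 2.47 to 6.66), 59.7 CPM of HP (0.822 to 8.28), 48.7 CPM of HSPA6 (2.26 to 14.3) and 159 CPM of IGJ (27.8 to 55.5). It also held 56.1 CPM of LAMA3 (21.3 to 28.1), 137 CPM of IGFBP6 (76.5 to 84.2), 106 CPM of EGFR (69.4 to 72.4) and 308 CPM of ABCA1 (162 to 203). For SLC1A5 it measured 12.3 CPM (6.26 to 7.66) and for NUCB2 62.1 CPM (51.4 to 54.3). Its ciliated cell mean of 3.82 was the lowest of NP-IF (4.78 to 5.06).

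NP-HF 2 was the highest high-fertile library for GRP (4722 CPM, the others 1236 to 2239), M-SAA3.2 (689.7 CPM, 34.9 to 99.0), IGFBP6 (195 CPM, 98.7 to 126) and HOXA11 (134 CPM, 74.3 to 81.1). NP-HF 4 was the highest for BOLA-DMA (21.0 CPM, 14.1 to 14.9), RRM2 (3.52 CPM, 1.36 to 1.99) and the T and NK cell mean (2.73, 2.06 to 2.18).

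The remaining libraries gave scattered cases. NP-HF 5 held 3.04 CPM of MS4A2 (0.754 to 1.36). NP-HF 3 was low for RXRA (48.4 CPM, 58.8 to 62.3) and high for the epithelial mean (6.49, 5.89 to 6.0). Among infertile libraries, NP-IF 1 was high for SCIMP (50.003 CPM, 0.850 to 14.8). NP-IF 2 was high for IFNT2 (2.93 CPM, 1.60 to 1.89), NP-IF 3 low for LPGAT1 (14.7 CPM, 18.4 to 19.8) and NP-IF 4 high for HOMER2 (25.3 CPM, 14.2 to 16.1).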

How the results depend on the processing

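The absence of calls between NP-IF and NP-HF held in edgeR under a threshold of 0.10, other scalings, filters and fits on 10 or 15 libraries, and in limma-voom. DESeq2 called 2 genes, ZNF70 (0.37) and LOC100125946 (-2.30), and leaving out 1 library gave 0 to 1 calls, the 1 being LOC100125946 without NP-HF 2 (-2.54). Without NP-HF 4, NP-HF 5 and NP-IF 5 together there were 0, with a smallest adjusted p of 0.0614. Genes under an unadjusted p of 0.05 numbered 735 of 19791 tested (without NP-HF 2) to 1514 of 30614 (no filter). The number tested differed, and the largest share was 1352 of 19994, without NP-HF 4, NP-HF 5 and NP-IF 5 together. Against NP-SF, DESeq2 called 10, and leaving out 1 library gave 0 in each case. The cause of the difference between tools was not tested. Of 119 genes followed through all settings, 6 turned sign in some: ESR1, IGF1 and KIT, with values near 0, and SERPINA14 (-0.58), GRP (-0.27) and SSLP1 (0.54). SERPINA14 was 0.083 in limma-voom, and leaving out 1 library gave -0.95 to 0.16 for it, -0.43 to 0.15 for GRP, -0.11 to 0.063 for ESR1, -0.19 to 0.064 for IGF1, -0.22 to 0.21 for KIT and -0.016 to 0.97 for SSLP1. Without NP-HF 4, NP-HF 5 and NP-IF 5, ESR1 was 0.053, IGF1 0.070 and KIT -0.14. With 5 heifers a group, small differences could go uncalled at any level. ZNF70, at 0.37 ± 0.07 log2 units and a mean of 24.1 CPM in NP-HF, was not called in the main fit. The median SE was 0.17 over all genes and 0.13 over those with at least 5 CPM, and genes under 5 CPM were measured less precisely. No paired analysis was possible because the labels give the endometrium libraries animal numbers and no replicate numbers shared between groups.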

Other observations

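Some genes with small p fell outside the rule for named genes, by their mean level (NR2E1) or by the share of library pairs ordered alike (GSTA3-2 and SCIMP). They were chosen after their values were seen, and none was called by edgeR's quasi-likelihood test. DESeq2 called GSTA3-2 and SCIMP against NP-SF but not against NP-HF. GSTA3-2, a glutathione transferase entry with close copies, measured 0.497, 0.308, 25.6, 32.6 and 0.268 CPM in NP-IF 1 to 5. NP-IF 3 and NP-IF 4 were high, while NP-IF 1, NP-IF 2 and NP-IF 5 lay among the NP-HF (0.283 to 0.905 CPM), NP-SF (0.0967 to 0.807 CPM) and P-HF (0.0395 to 0.338 CPM) libraries. The fitted difference was 4.48 ± 1.06 (adjusted p = 0.842).

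SCIMP, an adaptor protein of antigen-presenting cells, measured 50, 2.93, 5.41, 14.8 and 0.850 CPM in NP-IF and 1.53, 4.62, 1.78, 2.38 and 1.26 CPM in NP-HF. NP-IF 1 and NP-IF 4 were above all 5 high-fertile libraries by a wide margin, NP-IF 3 by a little, and NP-IF 5 was below them. Its fitted difference of 2.68 ± 0.67 (adjusted p = 0.842) was 1.38 without NP-IF 1. NR2E1, an orphan nuclear receptor, measured 1.74, 1.90, 3.03, 0.835 and 5.32 CPM in NP-IF and 0.428 to 1.2 CPM in NP-HF (1.55 ± 0.38), with NP-IF 5 the highest and NP-IF 4 within the high-fertile range. UCHL1, described above, was likewise high in NP-IF 1 and NP-IF 4, and SLCO5A1 in NP-IF 1, NP-IF 2 and NP-IF 4.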
